A study of Homo sapiens with 2 samples.

Results

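The transcripts of 10 genes were followed in CD7+ cells made from H1, an established line of human embryonic stem cells: FST, IL13, IL1RL1, DIO2, COBLL1, TWIST1, ADCYAP1, NPPC, GCSAML and OSM. They are 10 of the 36601 genes listed, and they were chosen by their UMIs (unique molecular identifiers, each counted as 1 captured transcript) in these same cells, because several of them appeared together in CD3D+ cells and were lower at the later day. Their levels by day and their joint detection are therefore given as a description. The H1 cells went through 12 days of hematopoietic differentiation and were then grown on OP9-DLL4, a mouse stromal line that presents the Notch ligand DLL4, with SCF, Flt3L and IL-7. CD7+ cells were sorted after 10 days (day 10) or 14 days (day 14) of this co-culture, and each day gave 1 droplet-based single-cell library. The days share the line, the stroma and the sort, so the day cannot be told apart from the library, and no comparison between days could be tested. Intervals below are exact 95% intervals that cover counting error only.

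IL13 is a cytokine of type 2 immunity, made by T helper 2 cells, by group 2 innate lymphoid cells (ILC2), by mast cells and by some NKT cells. T helper 2 cells and ILC2 are known for the transcription factor GATA3 and for IL1RL1, the receptor for the alarmin IL33. FST encodes follistatin, a secreted protein that binds activins and blocks their receptors. Among the other genes, ADCYAP1 and NPPC encode the peptide hormones PACAP and C-type natriuretic peptide, OSM encodes a cytokine that signals through gp130, DIO2 encodes the deiodinase that activates thyroid hormone, TWIST1 encodes a basic helix-loop-helix transcription factor, COBLL1 encodes a protein related to the actin regulator cordon-bleu, and GCSAML encodes a relative of a signalling protein of germinal center lymphocytes.

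The genes do not share a locus. In GRCh38, the build of the matrices, FST (ENSG00000134363) spans chr5:53480626-53487134 and IL13 (ENSG00000169194) chr5:132656263-132661110, both on the plus strand of chromosome 5. IL1RL1 (ENSG00000115602) spans chr2:102311502-102352037 on the plus strand. RefSeq promoters of GRCh38.p14, from 250 bases before to 50 bases after a gene start, matched 8 of the 10 genes with 16 entries. The lines below show the promoters of the pair that named the group, FST and IL13, and of IL1RL1, the type 2 receptor among the 10, 5′ to 3′ and on the plus strand. Capitals mark matches to a GATA motif, taken as GATAA or GATAG with an A or a T before it, on either strand.
FST, chr5:53480379-53480678: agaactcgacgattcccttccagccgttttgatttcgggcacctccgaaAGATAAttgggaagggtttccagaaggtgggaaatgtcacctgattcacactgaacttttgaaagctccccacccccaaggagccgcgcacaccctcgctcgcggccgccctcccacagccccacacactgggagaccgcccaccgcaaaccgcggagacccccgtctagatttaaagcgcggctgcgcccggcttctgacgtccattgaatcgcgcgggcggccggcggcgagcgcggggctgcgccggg
IL13, chr5:132657923-132658222: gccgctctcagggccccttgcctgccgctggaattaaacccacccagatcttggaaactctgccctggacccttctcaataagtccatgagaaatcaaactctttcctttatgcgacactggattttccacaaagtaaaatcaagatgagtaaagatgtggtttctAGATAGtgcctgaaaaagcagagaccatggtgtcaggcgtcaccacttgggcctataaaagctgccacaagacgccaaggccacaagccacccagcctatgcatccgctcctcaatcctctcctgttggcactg
IL1RL1, chr2:102311313-102311612: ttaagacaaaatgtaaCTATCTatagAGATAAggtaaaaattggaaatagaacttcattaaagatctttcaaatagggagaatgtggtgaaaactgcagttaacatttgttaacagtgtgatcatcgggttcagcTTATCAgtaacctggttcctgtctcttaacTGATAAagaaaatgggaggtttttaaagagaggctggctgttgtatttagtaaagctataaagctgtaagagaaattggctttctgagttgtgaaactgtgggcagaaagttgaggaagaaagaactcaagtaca
In the promoters shown, the match in FST began 201 bases before the gene start, that in IL13 84 bases before it, and the 4 in IL1RL1 234, 224, 115 and 85 bases before it. IL13 and IL1RL1 each had a second entry, not shown: that of IL13 held 1 match, 51 bases before its start, and that of IL1RL1 held 0. Of the 16 entries 7 held a match, and so did 25.0% of all 35116 promoters in the table, so a match is common and is given only as a description. The 3 entries of COBLL1, the 2 of ADCYAP1, the 1 of NPPC and 2 of the 3 of GCSAML also held none.

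A barcode counted as a cell if it had between 1000 and 7000 genes and no more than 18% of its UMIs from mitochondrial genes. Day 10 gave 12114 such cells (median 16173.5 UMIs) and day 14 gave 8929 (median 15029 UMIs), and 29 kept barcodes occurred in both libraries. CD3D, a chain of the T cell receptor complex, had at least 1 UMI in 11134 day 10 and 8919 day 14 cells, which are called CD3D+. Among the 2486 genes with at least 50 CPM (UMIs per 1000000 UMIs) in both libraries, the log2 ratio between day 14 and day 10 had a median of -0.07.

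Of the 10 genes, 7 were lower at day 14 by more than 2-fold, and IL1RL1 was not. FST had 92.0 CPM (90.7 to 93.3) at day 10 and 7.63 CPM (7.198 to 8.08) at day 14, a 12.1-fold lower level. IL13 had 15.7 CPM (15.1 to 16.2) and 3.10 CPM (2.83 to 3.39), 5.05-fold lower. COBLL1, at 21.6 CPM (20.9 to 22.2) and 1.12 CPM (0.962 to 1.30), was 19.2-fold lower, and TWIST1, at 49.8 CPM (48.8 to 50.7) and 4.17 CPM (3.86 to 4.51), was 11.9-fold lower. The hormone genes both belonged to the lower ones but by unequal amounts. ADCYAP1 went from 88.6 CPM (87.3 to 89.9) to 11.5 CPM (10.9 to 12.0), and NPPC from 92.2 CPM (90.9 to 93.5) to 39.8 CPM (38.8 to 40.8). OSM had 141 CPM (139 to 142) and 63.0 CPM (61.8 to 64.3). IL1RL1 stayed at 20.3 CPM (19.7 to 20.9) against 22.7 CPM (22.0 to 23.5), a ratio of 1.12 (1.07 to 1.17).

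The 2-fold rule was applied to log2 ratios with 5 CPM added to each level, for genes with at least 10 CPM in at least 1 library. Of the 10 genes 9 passed this filter, 7 were lower and 0 were higher. Of the 8295 genes compared, 2.64% were lower and 4.54% higher. Because the genes were picked partly for this direction, nothing is read from the difference. GCSAML, at 19.4 CPM (18.8 to 20.05) and 8.98 CPM (8.51 to 9.46), had a log2 ratio of -0.81 and so was not past the rule. DIO2 did not pass the filter, with 8.54 CPM (8.15 to 8.95) at day 10 and 0.383 CPM (0.292 to 0.494) at day 14. In CD3D+ cells alone 7 were again lower, against 2.15% of all genes there, and FST had 97.6 and 7.63 CPM. The 980 CD3D- day 10 cells had 2 UMIs of IL13, 2 of DIO2, 10 of TWIST1 and 103 of FST, or 7.81 CPM (6.37 to 9.47).

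**Figure D1:**
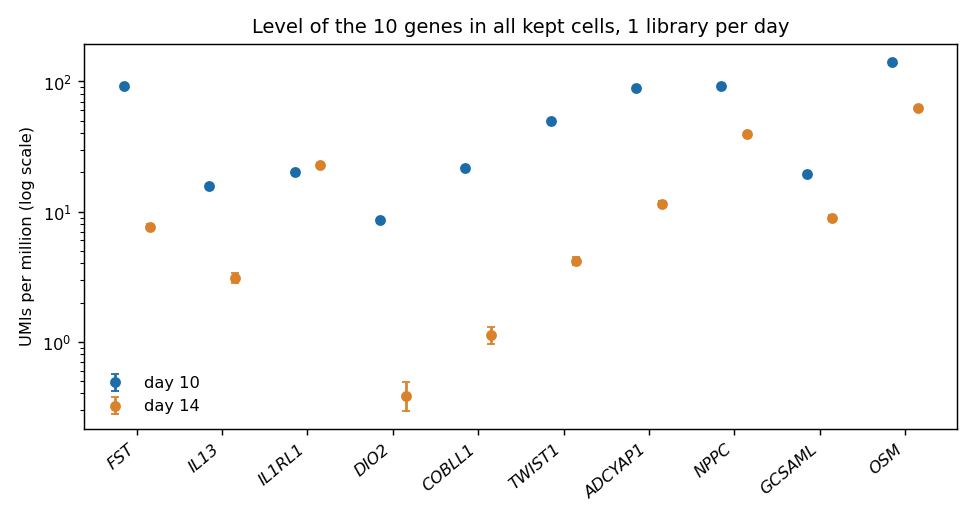
Level of each gene in all kept cells as UMIs per 1000000 on a log axis, in blue for the day 10 and in orange for the day 14 library, with exact 95% Poisson intervals that are mostly smaller than the points. FST lies at 92.0 and 7.63, while the IL1RL1 points lie side by side at 20.3 and 22.7.

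FST and IL13 were concentrated in few cells. At day 10, 16.2% of CD3D+ cells had an FST UMI, and the 616 cells with 10 or more, 5.53% of the CD3D+ cells, carried 80.7% of all FST UMIs in CD3D+ cells. The highest cell had 111 FST UMIs. IL13 had a UMI in 7.10% of these cells, and 83 cells with 10 or more carried 45.8% of its UMIs, up to 75 in a cell. For DIO2 the 35 cells with 10 or more UMIs carried 36.8%. IL1RL1, COBLL1 and GCSAML had the opposite form: 21.3%, 21.2% and 20.8% of cells had a UMI, but only 13, 10 and 7 cells reached 10. ADCYAP1 was widespread, with a UMI in 50.1% of CD3D+ cells, and its 262 cells with 10 or more held 18.2% of its UMIs. OSM had a UMI in 46.6% of cells, and 972 cells with 10 or more held 51.5% of its UMIs.

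At day 14 the same concentration held with fewer cells. FST had a UMI in 2.09% of CD3D+ cells, and 37 cells held 67.1% of its UMIs. IL13 had a UMI in 1.502%, and 9 cells held 53.1% of its 478 UMIs, with up to 93 in 1 cell. The 59 DIO2 UMIs of day 14 included 31 in a single cell, so that level rests largely on 1 barcode.

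**Figure D2:**
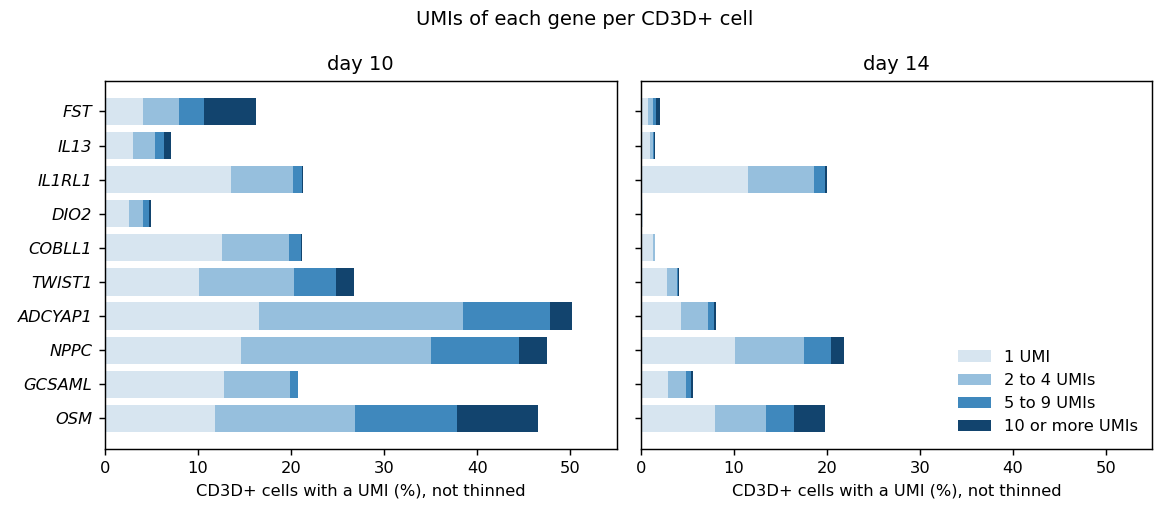
Share of CD3D+ cells with 1, 2 to 4, 5 to 9 or 10 or more UMIs of each gene, unthinned, at day 10 (left, 11134 cells) and day 14 (right, 8919 cells). The darkest part of the FST bar stands for 5.53% of day 10 cells, whereas IL1RL1 bars are nearly as long at day 14 (19.99%) as at day 10 (21.3%).

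For shares that do not depend on depth, each cell was thinned to 5000 UMIs, which left out 291 day 10 and 382 day 14 cells that had fewer. Of the 10894 CD3D+ day 10 cells left, 12.1% (11.5 to 12.7) had FST and 4.06% (3.69 to 4.44) had IL13. IL1RL1 was seen in 9.36% (8.82 to 9.93), DIO2 in 2.34% (2.07 to 2.64), COBLL1 in 9.94% (9.39 to 10.5) and TWIST1 in 15.6% (14.9 to 16.3). ADCYAP1 was seen in 28.9% (28.1 to 29.8), NPPC in 29.1% (28.3 to 29.99), GCSAML in 9.66% (9.11 to 10.2) and OSM in 30.5% (29.6 to 31.4). A monocyte-like cluster, described with the other clusters below, was used as a background. Its UMIs of these genes can come from free RNA, from doublets, which were kept, or from the cells themselves. These sources were not told apart. The cluster held 1012 thinned day 10 cells with a median depth of 14809.5 UMIs, against 16663.5 in the CD3D+ cells. CD3D itself had a UMI in 47.8% of the cluster's cells. Its shares were 2.47% (1.605 to 3.63) for FST, 0.593% (0.218 to 1.29) for IL13, 0.889% for IL1RL1, 0.593% for DIO2, 1.78% for COBLL1, 1.98% for TWIST1, 2.77% for ADCYAP1, 4.15% for NPPC, 0.593% for GCSAML and 3.95% for OSM. Each of the 10 shares in CD3D+ cells was above the one in monocyte-like cells, with intervals that did not overlap. The genes were chosen partly for their detection in CD3D+ cells, so nothing is read from this difference. The groups also overlap, as 492 of the cluster's thinned cells were CD3D+ and are counted in both.

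At day 14 the thinned shares among 8540 CD3D+ cells were 1.41% (1.17 to 1.68) for FST, 0.644% (0.486 to 0.837) for IL13 and 0.117% (0.0562 to 0.215) for DIO2. IL1RL1 again stood out, at 9.71% (9.09 to 10.4) of cells, within counting error of its day 10 share. COBLL1 was in 0.211% (0.125 to 0.333), TWIST1 in 1.57% (1.32 to 1.86), ADCYAP1 in 3.22% (2.86 to 3.62), NPPC in 11.4% (10.7 to 12.1), GCSAML in 2.62% (2.29 to 2.98) and OSM in 10.7% (10.0 to 11.4). For FST, IL13, DIO2, COBLL1, TWIST1 and ADCYAP1, the overall day 14 share lay below that of the day 10 monocyte-like cells or had an overlapping interval. Those cells cannot serve as a background for day 14, because droplets without a cell held less of each of these genes at day 14. In barcodes that are mostly such droplets, FST had 63.9 CPM at day 10 and 6.08 CPM at day 14. IL13 had 12.6 and 2.64 CPM in them. Whether these day 14 shares exceed a background of their own library was not tested, and the day 14 values are given below by cluster.

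Which of these genes occurred in the same cell was measured as the number of CD3D+ cells with both, divided by the number expected if the genes were detected independently. At day 10, FST and IL13 were together in 179 cells where 53.4 were expected, a co-detection ratio of 3.35 (2.88 to 3.88). All 45 pairs had enough cells to be read. Of these, 20 had a ratio of 2 or more, 37 had an interval above 1, and the median ratio was 1.76. For comparison, of the 12436 genes seen in at least 0.5% of these cells, 1.6% reached a ratio of 2 with FST and 2.43% with IL13, and the median ratios were 1.0001 and 0.992. These pairs were part of how the genes were chosen.

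FST was found most with COBLL1, in 490 cells against 131 expected, a ratio of 3.75 (3.42 to 4.09). With TWIST1 it was found in 570 cells (ratio 2.78, 2.55 to 3.01), with IL1RL1 in 357 cells (ratio 2.90, 2.60 to 3.21) and with NPPC in 796 cells (ratio 2.08, 1.93 to 2.23). IL13 was found most with DIO2, in 45 cells against 10.3 expected, a ratio of 4.35 (3.17 to 5.82). With its type 2 companion IL1RL1 it was found in 154 cells (ratio 3.72, 3.16 to 4.36), and with GCSAML in 139 cells (ratio 3.26, 2.74 to 3.85). ADCYAP1, seen in many cells, had lower ratios, 1.73 (1.601 to 1.87) with FST and 1.82 (1.595 to 2.07) with IL13.

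OSM did not share this pattern. It was found with FST in 267 cells where 401 were expected, a ratio of 0.666 (0.588 to 0.750), and it was part of all 3 pairs whose interval lay below 1, the others being with COBLL1 (0.851) and TWIST1 (0.884). With IL13 its ratio was 0.876 (0.725 to 1.05). Without thinning, the OSM ratio with FST was 0.768, that with COBLL1 0.990 and that with TWIST1 1.04, so of these 3 pairs only that with FST stayed well below 1 with and without thinning.

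**Figure D3:**
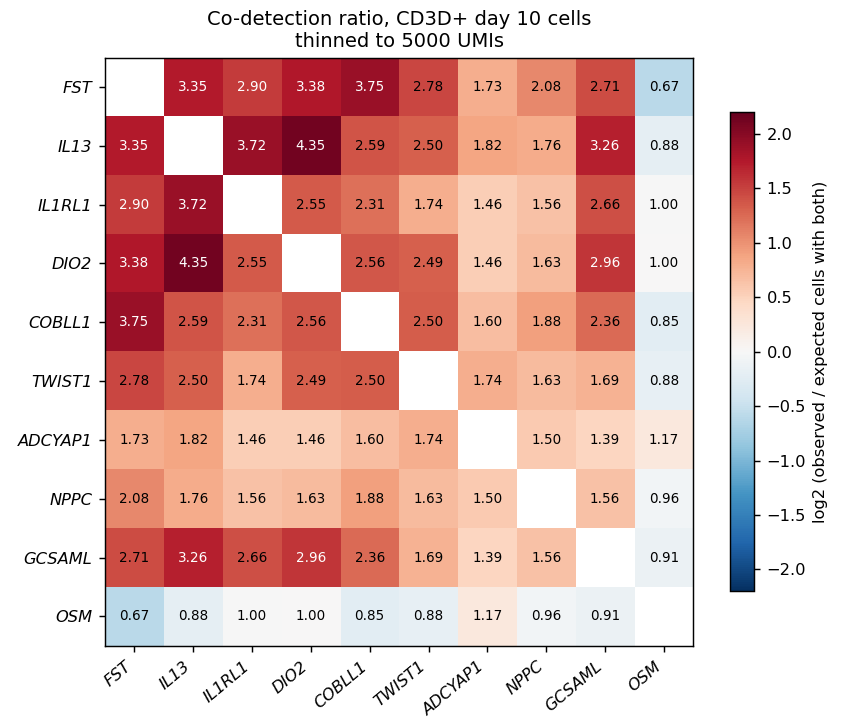
Observed over expected number of CD3D+ day 10 cells with a UMI of both genes, after thinning to 5000 UMIs, printed in each square and coloured on a log2 scale (red above 1, blue below 1). Squares among FST, IL13, IL1RL1, DIO2, COBLL1 and GCSAML are red, up to 4.35 for IL13 with DIO2, and the OSM row is pale or blue, with 0.666 for FST.

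The number of the 10 genes in each thinned cell was also counted, without a number expected from the shares of the single genes. Of CD3D+ day 10 cells 70.1% had at least 1 of the 10 genes, 41.1% had at least 2, 21.6% had at least 3, and 544 cells (4.99%) had at least 5. No cell had all 10, and 5 cells had 9. At day 14, 32.9% had at least 1, 1.35% had at least 3, and the most was 5, in 4 cells. Fewer pairs could be read there, 27 of 45, and 16 had a ratio of 2 or more. The share of all genes that reached 2 was also higher there, 6.23% with FST and 9.21% with IL13. IL13 and IL1RL1 were together in 20 cells against 5.34 expected, a ratio of 3.75 (2.29 to 5.79), close to the day 10 value. FST and TWIST1 were together in 13 cells against 1.88 expected, a ratio of 6.90 (3.68 to 11.8). FST and IL13 shared 3 cells at day 14 against 0.773 expected, which is too few to read.

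Clustering was run on the kept cells of both days without the 10 genes, so that their levels by cluster were not set by the clustering. Clusters were named from marker lists, and those that met no list are called by number and leading genes. Day 10 cells were mostly in clusters 0 (2896 cells, led by CDKN1C, the long non-coding GATA3-AS1 and the DNA repair gene UNG), 3 (2628 cells, led by the mitotic genes CCNB1, PLK1 and CDC20) and 4 (2600 cells, led by the Notch target HES4, UCHL1 and E2F8), none of which met a list, and in cluster 6, which was pro-T-like (1858 cells, led by C1QTNF4, SPINK2 and CD34). Day 14 cells were mostly in clusters 1 and 5, which were DP T-like (CD4+CD8+ double-positive T cells), and 2 and 7, which were NK/NKT-like. CD3D had a UMI in 97.8% to 100% of the cells of these 8 clusters. Small day 10 clusters were monocyte-like (8), DC-like (9), MEMP-like (10, megakaryocyte, erythroid and mast cell progenitors) and endothelial-like (12). Cluster 11, led by ACTA2 and COL1A2, was left unnamed because it met all 7 DC markers as well as 5 of 8 stroma markers.

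FST had its highest CPM in the few day 10 cells that lay in NK/NKT-like clusters. It had 347 CPM (307 to 390) in the 138 day 10 cells of cluster 2 and 325 CPM (294 to 358) in the 117 day 10 cells of cluster 7, values whose intervals overlap. Next came 176 CPM (172 to 180) in cluster 0, 147 CPM (144 to 150) in cluster 3 and 127 CPM (107 to 148) in the 56 day 10 cells of cluster 11, the last not separable from cluster 3. Cluster 4 had 63.1 CPM (61.0 to 65.3) and pro-T-like cluster 6 only 7.63 CPM (6.76 to 8.58), below the 19.9 CPM (17.8 to 22.1) of the monocyte-like cells. By share of thinned day 10 cells, FST was in 16.5% (9.06 to 26.5) of 79 cells of cluster 2 and 26.5% (18.7 to 35.7) of 113 cells of cluster 7. Cluster 0 had 19.1% (17.6 to 20.6) and cluster 3 15.6% (14.3 to 17.1), so cluster 2 was highest by CPM but not by share. Clusters 0 and 3 held 35.2% and 35.1% of the FST UMIs of the series. Day 14 cells had 23.3 CPM (21.6 to 25.1) in cluster 2, 9.33 CPM (8.28 to 10.5) in cluster 7, 2.76 CPM (2.28 to 3.30) in DP T-like cluster 1 and 0.416 CPM (0.246 to 0.657) in DP T-like cluster 5, each below the day 10 cells of the same cluster except in cluster 5, whose 47 day 10 cells had 0 UMIs. The day 14 cells of cluster 0 had 21.0 CPM (15.7 to 27.5).

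IL13 followed FST in part. Its day 10 level was 62.9 CPM (49.7 to 78.5) in cluster 7, 62.4 CPM (46.3 to 82.2) in cluster 2 and 53.6 CPM (40.3 to 70.0) in the 102 day 10 cells of DP T-like cluster 1, which could not be told apart. The MEMP-like cells had 32.3 CPM (26.4 to 39.1), clusters 0 and 3 had 24.6 CPM (23.1 to 26.2) and 23.7 CPM (22.3 to 25.1), and cluster 4 had 14.6 CPM (13.6 to 15.7). Pro-T-like cells had 1.18 CPM (0.851 to 1.58). By share of thinned day 10 cells, IL13 was in 11.4% (5.34 to 20.5) of cluster 2 and 10.6% (5.61 to 17.8) of cluster 7. It was in 2 of 89 cells of cluster 1, or 2.25% (0.273 to 7.88), and in 5 of 199 MEMP-like cells, or 2.51% (0.821 to 5.77). Cluster 0 had 5.50% (4.69 to 6.40), so the CPM of cluster 1 and of the MEMP-like cells rests on few cells. Cluster 2 was the highest at day 14, with 8.24 CPM (7.25 to 9.33).

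IL1RL1 had the same leading clusters as FST, and its level in them differed less between the days than that of FST. In cluster 2 it had 97.3 CPM (76.9 to 121) in day 10 cells and 56.2 CPM (53.5 to 58.9) in day 14 cells, and in cluster 7 83.8 CPM (68.5 to 102) and 30.2 CPM (28.3 to 32.2). Cluster 0 had 32.5 CPM (30.8 to 34.3) at day 10 and 21.8 CPM (16.4 to 28.4) at day 14. The level was lower at day 14 within each of these clusters. The day 14 library held more cells of clusters 2 and 7, 2605 and 1348 against 138 and 117, and fewer of cluster 0, 94 against 2896. In MEMP-like cells, whose name covers mast cell progenitors, IL1RL1 had 40.3 CPM (33.7 to 47.8).

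GCSAML had its highest day 10 levels in the same 3 clusters as FST, at 35.5 CPM (25.8 to 47.6) in cluster 7, 32.1 CPM (30.4 to 33.9) in cluster 0 and 31.2 CPM (20.2 to 46.0) in cluster 2, values whose intervals overlap. The remaining genes were highest outside clusters 2 and 7. TWIST1 had 104 CPM (101 to 107) in mitotic cluster 3, against 51.0 CPM (48.8 to 53.3) in cluster 0 and 54.7 CPM (52.6 to 56.7) in cluster 4. DIO2 also had its highest value in cluster 3, at 17.3 CPM (16.2 to 18.5), not separable from 12.9 CPM (7.37 to 20.9) in the few day 10 cells of cluster 7. COBLL1 had 44.1 CPM (42.1 to 46.2) in cluster 0 and was low in the NK/NKT-like day 10 cells, at 1.25 CPM (0.0316 to 6.95) and 4.84 CPM (1.77 to 10.5), which separates it from FST there. Its highest level, 77.6 CPM (54.3 to 107), was in 34 endothelial-like cells. ADCYAP1 and NPPC were highest in the day 10 cells of clusters 0, 3 and 4, with ADCYAP1 at 131, 112 and 113 CPM and NPPC at 146, 139 and 105 CPM. OSM was highest in cluster 4, at 209 CPM (206 to 214). In pro-T-like cells OSM had 149 CPM (145 to 153) and GCSAML 16.9 CPM (15.6 to 18.3), near their levels over all day 10 cells, while the other 8 genes were lower there than over all day 10 cells. In NK/NKT-like cluster 2 of day 10, where FST had its highest CPM, OSM had 23.7 CPM (14.3 to 37.0).

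**Figure D4:**
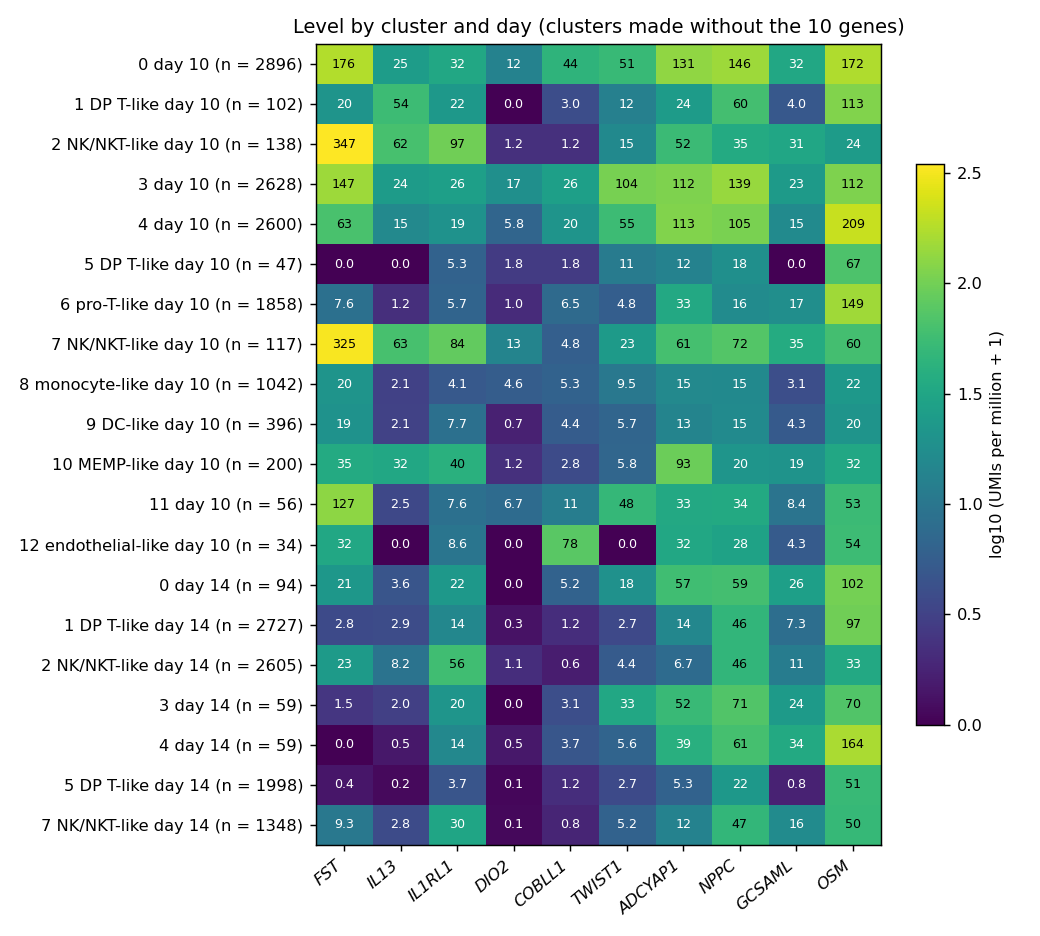
UMIs per 1000000 of each gene in each cluster and day with at least 30 cells, printed in the squares and coloured by log10 of the level plus 1. FST is brightest in the day 10 cells of NK/NKT-like clusters 2 and 7 (347 and 325), and OSM in cluster 4 (209).

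Co-detection was also measured inside single clusters, an alternative added after the data were seen. FST and IL13 had a ratio of 2.54 (1.99 to 3.18) within the 2819 CD3D+ thinned day 10 cells of cluster 0, 2.78 (2.16 to 3.53) within cluster 3 and 2.68 (1.72 to 3.98) within cluster 4, each below the 3.35 of all CD3D+ cells and above 1. A finer clustering, at resolution 1.0 in place of 0.5 and again without the 10 genes, gave a cluster of 1254 cells, 5.96% of all kept cells, that led for FST, IL13, COBLL1 and GCSAML. Of its cells 1213 were from day 10 and most had been in cluster 0. It held 34.4% of all FST UMIs, 27.7% of COBLL1, 26.2% of DIO2, 24.3% of IL13 and 18.6% of GCSAML, but 6.57% of OSM. FST had 461 CPM (450 to 472) in it against 63.5 CPM in all other day 10 cells, and IL13 59.8 CPM (56.0 to 63.9) against 12.2 CPM. Its leading genes outside the 10 included GATA3-AS1, BMP2, which encodes a bone morphogenetic protein, and PDE7B, a cAMP phosphodiesterase gene. With 3000 variable genes in place of 2000, the cluster with most UMIs of FST, IL13, COBLL1 and GCSAML was one of 3560 cells, of which 61.2% lay in cluster 3. It held 44.5% of all FST UMIs, so the cluster that led for FST was not the same group of cells under each setting. How many of these UMIs came from cells of cluster 0 and how many from cells of cluster 3 was not counted.

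CD3D+ cells were then split by a UMI of FST and of IL13 after thinning, while levels in the sets used all their UMIs. Unthinned, 1805 CD3D+ day 10 cells had FST and 790 had IL13, against 1316 and 442 after thinning. Some cells counted as lacking a gene therefore held it. Day 10 cells with both were set against those with neither, to see which other genes of type 2 lymphocytes they held. The 179 cells with both had a median of 11295 UMIs and 3245 genes, below the 17121 UMIs and 4067 genes of the 9315 cells with neither. The cells with both lay mostly in clusters 0 (41.9%) and 3 (37.4%), against 23.6% and 22.6% of the cells with neither. Pro-T-like cluster 6 held 18.9% of the cells with neither and 0% of those with both. Of 8032 genes compared, 2.55% were higher and 1.27% lower by more than 2-fold in cells with both. Among the other 8 of the 10 genes, which were chosen for this, 7 were higher, from ADCYAP1 at 206 against 80.9 CPM to DIO2 at 78.8 against 4.88 CPM, and OSM had 109 against 156 CPM.

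Of 18 receptors and surface genes of type 2 lymphocytes, 12 passed the filter, 8 were higher and 0 lower, with a median log2 ratio of 1.30 against 0.02 over all genes. IL1RL1, which is one of the 10 and so was chosen for this, is counted in the 12, in the 8 and in the median. It had 127 CPM (113 to 142) against 14.4 CPM (13.9 to 15.02). KLRB1, the lectin receptor CD161, had 52.5 CPM (43.6 to 62.7) against 9.50 CPM (9.04 to 9.97). PTGDR2, the prostaglandin D2 receptor that marks T helper 2 cells and ILC2, had 59.4 CPM (49.9 to 70.2) against 18.9 CPM (18.2 to 19.5), and KLRG1, an inhibitory receptor, had 36.6 CPM (29.2 to 45.2) against 10.6 CPM (10.2 to 11.1). TNFRSF18, the costimulator GITR, had 147 CPM against 53.4 CPM. IL17RB, the IL25 receptor chain found on ILC2, had 0 UMIs in the cells with both, an upper limit of 1.59 CPM, and 14 UMIs in all cells with neither. All 3 enzyme genes that passed, of 7, were higher: HPGDS, which makes prostaglandin D2, had 50.8 CPM (42.0 to 60.8) against 13.6 CPM (13.03 to 14.1), HPGD, which degrades prostaglandins, 180 against 61.0 CPM, and ALOX5AP, needed for leukotrienes, 242 against 110 CPM.

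The cytokines were mostly missing. Of the other 8 of 9 type 2 cytokine genes, IL4 alone passed the filter, with 37.9 CPM (30.4 to 46.7) against 9.76 CPM (9.30 to 10.2). IL5, a defining cytokine of ILC2, had 0 UMIs in both sets. AREG had 6.89 CPM (3.94 to 11.2) against 0.956 CPM (0.815 to 1.11) and IL9 3.01 CPM (1.21 to 6.21) against 0.151 CPM (0.0990 to 0.222), both under the filter. A pair of neighbours of IL13 on chromosome 5 were among the genes higher by more than 2-fold, IL4 and the kinesin gene KIF3A, at 115 CPM (102 to 130) against 40.7 CPM (39.7 to 41.7), whereas RAD50, at 90.0 against 69.1 CPM, and IRF1, at 110 against 112 CPM, were not.

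Among 22 transcription factors of type 2 and other lymphocytes 12 passed, 5 were higher and 1 lower. ID3, an inhibitor of E proteins, had 521 CPM (492 to 551) against 83.9 CPM (82.5 to 85.3), and its relative ID2 had 104 CPM (91.5 to 118) against 32.5 CPM (31.6 to 33.3). GATA3 had 591 CPM (560 to 623) against 210 CPM (208 to 213), and ETS1 and MAF were also higher. TCF7, a Notch-induced T cell factor, was lower, at 43.0 CPM (35.0 to 52.4) against 113 CPM (111 to 114). RORA, a factor of ILC2, had 4.30 against 2.84 CPM, under the filter.

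**Figure D5:**
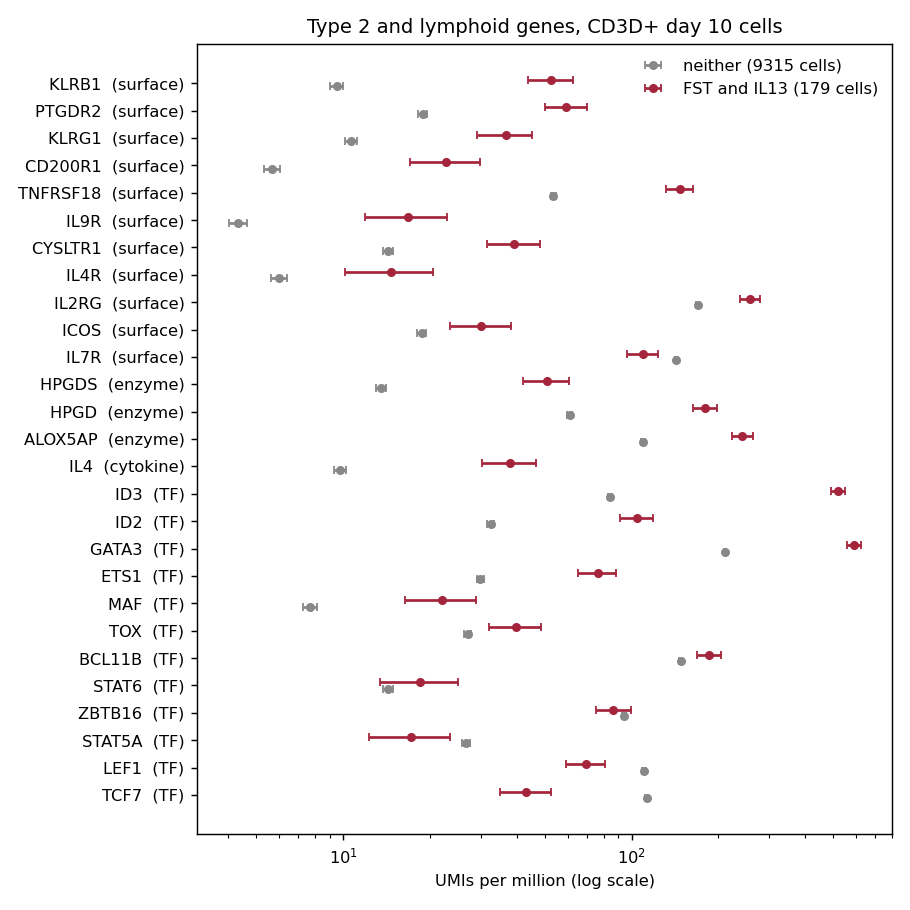
Level of the type 2 and lymphoid genes that passed the filter, other than the 10, as UMIs per 1000000 on a log axis. Bars are exact 95% Poisson intervals. CD3D+ day 10 cells with both FST and IL13 after thinning are red (179 cells), and those with neither are grey (9315 cells). Points for KLRB1, HPGDS, IL4 and ID3 are far apart, while STAT6 and ZBTB16 lie close together and LEF1 and TCF7 are to the left in the cells with both.

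Transcripts of the T cell receptor complex were read next. Of 21 genes of that complex and its coreceptors 16 passed, 2 were higher and 1 lower. CD3D had 2162 CPM against 1660 CPM, the gamma delta constant gene TRDC 952 CPM (913 to 993) against 573 CPM (570 to 577), and the alpha constant gene TRAC 28.8 CPM (22.4 to 36.6) against 10.2 CPM (9.70 to 10.7). LAT, an adaptor of T cell receptor signalling, had 833 CPM against 361 CPM. PTCRA, the surrogate alpha chain of immature T cells, was lower, at 12.5 CPM (8.36 to 17.9) against 49.9 CPM (48.9 to 51.0). CD4 and CD8A were at 3.01 and 2.58 CPM, and CD28 had 0 UMIs.

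Markers of other cell types were read in the same sets. Of 13 NK and cytotoxic genes 6 passed and 2 were higher, GZMM (granzyme M) at 73.6 CPM (63.0 to 85.5) against 10.5 CPM (10.03 to 11.01) and NKG7 at 944 against 458 CPM, whereas KLRF1 had 0 UMIs and NCAM1 1 UMI. ZNF683, which encodes HOBIT, a factor of tissue-resident and NKT cells, had 192 CPM (174 to 210) against 12.8 CPM (12.2 to 13.3). Of 7 pro-T markers 6 passed and 4 were lower, among them CD34 at 0.861 CPM (0.104 to 3.11) against 17.5 CPM (16.9 to 18.1). Of 12 mast cell genes 2 passed and 0 were past 2-fold: FCER1A and MS4A2, the defining receptor chains, had 0 UMIs, while the chymase CMA1 had 21 UMIs in the cells with both, at 9.04 CPM against 0.612 CPM, under the filter. TPSAB1 and TPSB2, near-identical tryptase genes whose reads cannot be told apart with certainty, had 21 and 19 UMIs. The 8 stroma markers summed to 8.18 CPM against 9.25 CPM with DCN and LUM at 0, and the 8 monocyte markers to 53.8 CPM against 106 CPM, with CD14 and FCN1 at 0. The 7 DC markers summed to 51.7 against 75.1 CPM and the 8 DP T markers to 221 against 573 CPM. The part of other cell types and of the lower depth in these differences was not tested.

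The pathways that the 10 genes act in were mostly within 2-fold between the sets. Of 24 activin and BMP pathway genes 7 passed and 1 was higher, ID1, a BMP target gene, at 238 CPM (219 to 259) against 62.8 CPM (61.6 to 64.0). INHBA, INHBB and INHA, which encode the activin and inhibin subunits that follistatin binds, had 0 UMIs in the cells with both and 5, 0 and 1 UMI in those with neither. In the OSM and gp130 family LIF was higher, at 32.3 CPM (25.4 to 40.5) against 5.13 CPM (4.80 to 5.48), and 1 of 5 that passed was past 2-fold. The receptor genes OSMR and LIFR had 0 UMIs in the cells with both. For the hormones, the natriuretic peptide receptor genes NPR1 and NPR3 and ADCYAP1R1, which encodes a receptor of PACAP, had 0 UMIs. NPR2, the receptor of C-type natriuretic peptide, had 1. Levels of VIPR1 and VIPR2, of the same list, are not given here. None of the IL33 receptor partners, of the TWIST1 partners or of the thyroid hormone genes that passed was past 2-fold. Under the filter, IL1RAP, the coreceptor of IL1RL1, had 3.44 against 3.52 CPM, and the thyroid hormone receptor THRA 7.32 against 7.70 CPM. None of 12 cell cycle genes was past 2-fold either, with TOP2A at 475 against 287 CPM. Of 10 early response genes 7 passed and 2 were higher, CD69 at 144 against 57.5 CPM and NR4A1 at 15.1 against 4.36 CPM.

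After thinning, cells with IL13 but no FST (263 cells) were set against cells with FST but no IL13 (1137 cells). Either set can include cells with an unthinned UMI of the gene it was split as lacking, and the part of this was not tested. The sets differed little: of 7837 genes compared, 0.179% were higher and 0.230% lower by more than 2-fold in the IL13 cells. COBLL1 was among the lower ones, at 31.7 CPM (26.8 to 37.2) against 108 CPM (103 to 113), and so were the myeloid genes LYZ, at 14.4 against 39.3 CPM, and DNASE1L3, at 3.38 against 13.3 CPM. NR4A1, a gene induced by T cell receptor signals, was higher in the IL13 cells, at 27.5 CPM (22.9 to 32.6) against 7.16 CPM (5.94 to 8.55). IL1RL1 had 72.4 CPM (65.0 to 80.5) against 60.1 CPM (56.4 to 63.9) and OSM 173 CPM (162 to 185) against 92.9 CPM (88.4 to 97.6). IL4, at 48.1 against 25.0 CPM, and GNLY, at 149 against 83.6 CPM, were not past 2-fold.

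At day 14 the genes that went with FST or IL13 could be read in a second library. The 120 CD3D+ cells with FST after thinning lay in NK/NKT-like clusters 2 (60.8%) and 7 (23.3%), against 28.4% and 15.3% of cells without FST. The 55 cells with IL13 lay in clusters 2 (60.0%), 7 (18.2%) and 1 (18.2%). Of the cells without IL13, 28.6%, 15.4% and 30.1% lay there, so the share with IL13 was higher mainly in cluster 2 and was lower in cluster 1. Against the CD3D+ cells without the gene, 1.94% of 8281 genes were higher by more than 2-fold with FST, and 2.06% of 8349 with IL13. Of 14 receptors and surface genes that passed in each comparison, 8 were higher with FST and 6 with IL13. IL1RL1 had 86.8 against 21.9 CPM with FST and 94.2 against 22.2 CPM with IL13. KLRG1 had 138 against 28.5 CPM with FST and 111 against 29.2 CPM with IL13, and TNFRSF18 424 against 103 CPM and 324 against 105 CPM. GATA3 had 449 against 175 CPM with FST and 360 against 177 CPM with IL13. Of 8 DP T markers 6 were lower with FST and 7 with IL13, against 1.11% and 1.51% of all genes. Of 8 NK/NKT markers 3 were higher and 1 lower with FST, and 0 were past 2-fold with IL13. The part of the clusters in these differences was not tested.

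Cytokines were also read in the 55 day 14 cells with IL13. IL4 had 198 CPM against 18.3 CPM in cells without IL13, CSF2, which encodes GM-CSF, 160 against 5.67 CPM, and IL3 64.5 against 1.505 CPM, and IL5 1.02 CPM, which is 1 UMI. In the like set of day 10, 442 cells with IL13 against 10452 without, IL4 had 44.8 CPM (39.97 to 49.99) against 11.1 CPM, IL3 1.42 CPM (0.679 to 2.61) against 0.239 CPM, and CSF2 0.283 CPM (0.0343 to 1.02) against 0.191 CPM, with IL3 and CSF2 under the filter. Early response genes went with IL13 at day 14 too, with 7 of the 9 that passed higher, such as EGR1 at 50.2 against 16.3 CPM and NR4A1 at 47.1 against 7.96 CPM. At day 10, 1 of the 7 that passed was higher with IL13, NR4A1 at 23.4 against 4.61 CPM, and EGR1 had 26.2 against 26.7 CPM. Of all 7851 genes compared at day 10, 0.943% were higher with IL13. Between the days, the IL4 level of all CD3D+ cells went from 12.4 to 19.4 CPM, and that of CSF2 from 0.193 to 6.69 CPM, while IL13 had 16.7 and 3.11 CPM.

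The genes whose counts per cell were most like those of FST, over the 10894 thinned CD3D+ day 10 cells and 12437 genes, were COBLL1 (Pearson r = 0.44), IL32 (0.43), CD52 (0.38), ZNF683 (0.35), TWIST1 (0.33), H3F3A (0.33), PDE7B (0.31) and MOCS2 (0.31). Those most like IL13 were IL1RL1 (0.22), IL32 (0.21), FST (0.19), ID3 (0.18), PMAIP1 (0.18), GCSAML (0.17), CD52 (0.17) and ZNF683 (0.17). IL32, CD52 and ZNF683 were on both lists. IL32 encodes a cytokine of activated T and NK cells and CD52 a surface glycoprotein of lymphocytes. The points are cells of 1 library, so these values describe that library, and those of IL13 are weak, as most cells had no IL13 UMI. OSM had an r of -0.09 with FST.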

How the data were processed

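Droplet single-cell RNA was measured in 2 libraries of CD7+ cells, 1 for each day. The authors deposited unfiltered matrices of UMI counts per gene and barcode, made per the labels with Cell Ranger 4.0.0 on GRCh38, with 36601 genes and no normalization. Barcodes were kept by the thresholds of the study's methods, whose detected transcripts were read as genes (1000 to 7000), with at most 18% MT- UMIs. Doublets were not called and were kept. UMIs were summed over cells and divided by all UMIs of those cells (CPM), with exact Poisson intervals. Shares, co-detection and the split of cells by FST and IL13 used cells thinned to 5000 UMIs. Levels in the split sets used all UMIs of their cells. Shares had exact binomial intervals, and pairs needed at least 5 observed or expected cells. Ratios added 5 CPM, where a gene reached 10 CPM in either set, and past 2-fold counted as called. Clusters came from 2000 variable genes other than the 10, 20 components, 20 neighbours and Leiden resolution 0.5 (leidenalg 0.10.2, Python 3.11.15, numpy 2.4.6, scipy 1.17.1). The members, gene lists and marker lists were chosen with earlier results of these data known. Named genes are the 10, genes of those lists, and the 8 most correlated with FST and with IL13. With 1 library per day no test was possible and no p-value is given. The calculations were tested on simulated data. Alternatives changed the thinning, cell filters, pseudocount, scaling and clustering.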

Additional observations from a re-analysis of the deposited data

Results flagged for a closer look

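Barcodes with 1 to 100 UMIs, which are mostly droplets without a cell, were not used in the comparisons between sets of cells. In 3 cases a gene was higher in them than in the kept cells with 95% intervals that did not overlap. DIO2 had 21.5 CPM (17.9 to 25.8) there at day 10 against 8.54 CPM in kept cells, and 2.75 CPM (1.76 to 4.10) at day 14 against 0.383 CPM. TWIST1 had 16.0 CPM (13.4 to 18.8) there at day 14 against 4.17 CPM in kept cells. COBLL1 at day 14, with 1.95 CPM (1.14 to 3.12) against 1.12 CPM (0.962 to 1.30), was also higher in them, but the intervals overlapped.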

How the results depend on the processing

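No paired analysis was possible because each day had 1 library and the labels give no replicate numbers. Without thinning, 13 of 45 pairs had a co-detection ratio of 2 or more, against 20, and the ratio of FST and IL13 was 2.80, against 3.35. Within clusters, an alternative chosen after seeing the data, that ratio was 2.54 in cluster 0, 2.78 in cluster 3 and 2.68 in cluster 4, where 13 pairs reached 2. The cause of these shifts was not tested. With 8000 UMIs, 3 or more CD3 UMIs, without the 5% of cells with most UMIs, without cells with monocyte and DC markers, or with another draw of the thinning, 19 or 20 pairs reached 2. The number of genes lower at day 14 was 7 or 8 under each alternative. The ratio of TWIST1 and OSM, 0.884 with an interval below 1, turned to 1.04 without thinning, and no other result reversed. Shares of cells with a UMI were higher for all 10 genes without thinning. With 1 library per day, the precision stated is that of counting alone.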

Other observations

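Among all CD3D+ cells, several genes of type 2 and innate-like lymphocytes had their own order between the days. From day 10 to day 14, KLRB1 went from 15.1 to 195 CPM, and PTGDR2 had 22.4 and 52.5 CPM. RORA had 3.22 and 28.4 CPM. HPGDS had 14.6 and 4.55 CPM, in the same order as FST and IL13, and GATA3 had 238 and 179 CPM.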
